A study of Mus musculus with 6 samples.

Results

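The cytochrome P450 genes of imiquimod-treated mouse skin were taken from the count files by symbol: Cyp, a family number, a subfamily letter and a gene number, and were selected on measured values by at least 10 counts summed over the 6 libraries. The pattern matched 90 symbols, of which 1 was not analysed here and 46 had fewer than 10 counts (22 of them had none). The remaining 43 genes, of 34590 gene symbols in the files, belonged to 28 subfamilies in 13 families. Neither the symbol nor the summed count uses the genotype. Just inside the minimum stood Cyp4f15 with 10 counts and Cyp4f40 with 13, and just outside it Cyp21a1 and Cyp4f14 with 9 each.

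The tested group was skin of 3 Tnip1-/- mice, and it was set against skin of 3 Tnip1+/+ mice. All 6 mice carried the C57BL/6 background and had imiquimod, a Toll-like receptor 7 agonist that inflames mouse skin, put on the skin surface for 2 days. Tnip1 encodes a ubiquitin-binding protein that restrains NF-kB signalling. Sequencing was of total RNA from whole biopsies after removal of ribosomal RNA. The labels do not name the deleted part of Tnip1, and untreated skin was not analysed here.

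Cytochrome P450 enzymes are haem proteins that insert an atom of oxygen into small lipophilic molecules. Most sit in the endoplasmic reticulum, where they take electrons from P450 reductase and cytochrome b5, and a few sit in mitochondria, where they take them from adrenodoxin. Families named with low numbers (1 to 3) oxidise foreign compounds and some endogenous lipids, family 4 hydroxylates fatty acids and eicosanoids at the chain end, and the others make or break down sterols, steroid hormones, bile acids, vitamin D and retinoic acid. Skin uses some of them to build barrier lipids, to clear eicosanoids and to handle sterols.

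Libraries held 19529970 to 25864730 gene counts in knockout skin and 24701074 to 31005554 in wild type skin. The detection floor, set at 3 counts, was 0.127 to 0.157 CPM in knockout and 0.0900 to 0.111 CPM in wild type skin, where CPM stands for counts scaled to a common library size with TMM factors. Tnip1 stood at 1.57 to 2.03 CPM in knockout and 25.1 to 28.1 CPM in wild type libraries. The library identifiers in the labels differ in prefix between the genotypes. Whether this marks a batch is unknown, and a batch that followed the prefix could not be told apart from genotype. Xist exceeded the Y-linked Ddx3y in knockout replicate 3 and wild type replicates 2 and 3, and the reverse held in the other 3 libraries, so the sexes were mixed unevenly over the genotypes. Wild type replicate 2 also held 1.90 CPM of Ddx3y, against 0.0370 CPM in wild type replicate 3.

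Markers of several cell types differed between the genotypes. Of 17 tested sebaceous gland markers 0 were higher and 9 lower, with summed levels of 1861 to 4086 CPM in knockout and 5348 to 8619 CPM in wild type libraries. Scd1 carried most of that difference (1011.5 CPM in knockout and 4208 CPM in wild type skin). Krt79 (log2 0.31) and Elovl3 (0.75) had values in the other direction and were not called. Of 12 adipocyte markers 0 were higher and 5 lower, with 341 to 2379 CPM in knockout and 4186 to 9502 CPM in wild type libraries. Skeletal muscle markers were higher in 0 and lower in 11 of 12, with 7677 to 10428 CPM in knockout and 18919 to 32173 CPM in wild type libraries. Fibroblast markers were higher in 0 and lower in 3 of 10, with 6855 to 7536 CPM in knockout libraries. They summed to 17457, 8660 and 7254 CPM in wild type replicates 1, 2 and 3, so wild type replicate 1 stood apart. Macrophage markers were higher in 4 and lower in 0 of 11, with 2185 to 2717 CPM in knockout and 1405 to 2048 CPM in wild type libraries. Their median log2 value was -0.26. The higher sum came mainly from Lyz2 (920 CPM in knockout and 415 CPM in wild type skin) and Mrc1 (533 and 251 CPM). Hair follicle markers, of which 0 were higher and 1 of 5 lower, summed to 9.23 to 12.3 CPM in knockout libraries and to 15.9, 11.2 and 98.6 CPM in wild type replicates 1, 2 and 3, so wild type replicate 3 stood apart. Neutrophil markers were higher in 8 of 9 and lower in 0, with 7553 to 12266 CPM in knockout and 134 to 379 CPM in wild type libraries. S100a8 (mean 4232 CPM) and S100a9 (5574 CPM) carried most of the knockout sum, and Ly6g, Mpo and Elane were too low to test. Epidermal keratinocyte markers, among which 3 of 11 were higher and 2 lower, summed to 22691 to 27366 CPM in knockout and 10214 to 15908 CPM in wild type libraries, with a median log2 value of 0.07. Krt14 carried most of the difference between these sums (11551 CPM in knockout and 1985 CPM in wild type skin). Krt15 (-3.08) and Krt10 (-0.95) were lower. Krt2 was at 0 in knockout replicates 1 and 2, and no other of the 12 was at 0 in any library. Markers of hepatocytes, the cells best known for P450 enzymes, were nearly all too low to test (2 of 12 tested, 1 higher and 1 lower) and summed to 0.932 to 14.6 CPM in knockout and 3.99 to 8.77 CPM in wild type libraries, with Fgb at 0 in all 6 libraries. In whole skin, fewer cells of a type and less RNA per cell cannot be told apart, and the part of these markers in the P450 differences was not tested.

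More P450 genes were lower than higher in knockout skin. Of the 43 genes, 33 passed the filter on low counts, and of these 5 were higher (Cyp7b1, Cyp4f18, Cyp3a13, Cyp4f39 and Cyp4f16), 16 lower and 12 not called at an adjusted p under 0.05. Over all 16691 tested genes, 45.1% were called, 22.3% as higher and 22.7% as lower, whereas among the tested P450 genes 63.6% were called, 15.2% as higher and 48.5% as lower. The median log2 fold change (knockout minus wild type) was -0.97 for the P450 genes and -0.04 for all tested genes. The libraries of the genotypes did not overlap for 6 tested P450 genes higher and 14 lower in knockout, where the background was 29.2% higher and 30.5% lower. Together the 43 genes summed to 630, 544 and 556 CPM in knockout libraries and 668, 1060 and 913 CPM in wild type libraries. Cyp2e1 (mean 53.5 CPM in knockout and 173 CPM in wild type skin) and Cyp2g1 (5.37 and 86.0 CPM) carried most of that difference. Neither gene was called. The calls of 13 of the 21 genes held under all 16 alternative settings, and without knockout replicate 1 or wild type replicate 3 the number lower was 10. Wild type replicate 3 is the library with the high hair follicle markers, whose part was not tested.

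**Figure D1:**
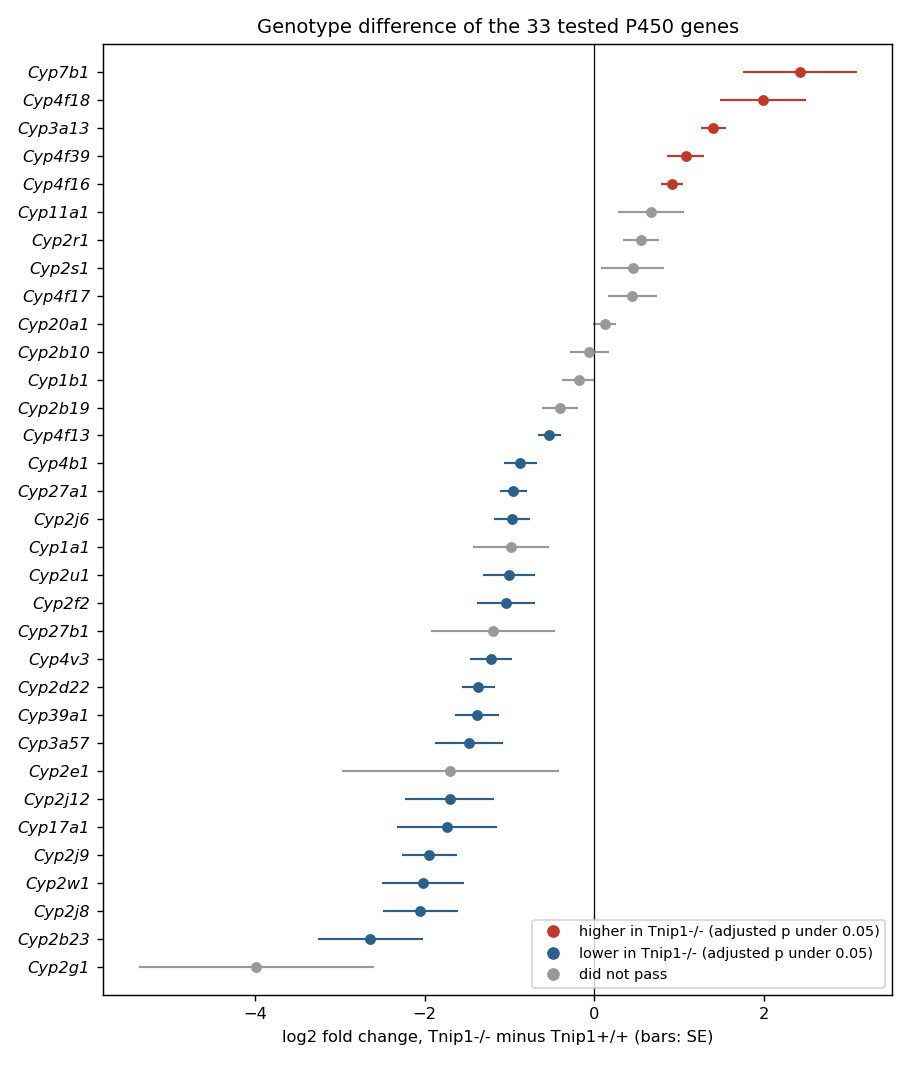
Log2 fold change (x axis, knockout minus wild type, bars are SE) of the 33 tested P450 genes (y axis). The 5 genes called higher lie between 0.92 and 2.42, and the 16 called lower between -2.64 and -0.53. Cyp2g1 and Cyp2e1 have wide bars and did not pass.

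Genes of sterol hydroxylation moved both ways. Cyp7b1 encodes an oxysterol hydroxylase that acts on side-chain oxysterols. It stood at 86.8, 56.1 and 33.2 CPM in knockout libraries, against 21.6, 7.78 and 3.37 CPM in wild type libraries. All 3 knockout libraries lay above all 3 wild type libraries, although both groups spread widely. The increase of Cyp7b1 (log2 2.42, SE 0.67, adjusted p = 0.0239) was the largest increase among the called P450 genes. It was not called once knockout replicate 1 (2.03) or wild type replicate 2 (2.22) was left out, and the value was 3.41 without wild type replicate 1.

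Cyp39a1, which encodes a hydroxylase for brain-derived oxysterol, fell in knockout skin. Its levels were 3.32, 5.68 and 6.06 CPM in knockout libraries and 10.6, 13.7 and 14.9 CPM in wild type libraries, with no overlap (log2 -1.38, SE 0.26, adjusted p = 0.0061). Cyp27a1 encodes the mitochondrial sterol side-chain hydroxylase, which also acts on vitamin D. It had 12.0, 17.2 and 16.6 CPM in knockout libraries and 30.7, 28.4 and 29.7 CPM in wild type libraries. The wild type libraries lay close together and above all knockout libraries (log2 -0.95, SE 0.16, adjusted p = 0.00416).

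The bile acid gene Cyp8b1 was too low to pass the filter, with 35 counts over the knockout and 9 over the wild type libraries. Cyp46a1, the cholesterol hydroxylase gene of brain, was also untested, with 15 counts over the knockout and 21 over the wild type libraries.

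Family 4, the fatty acid and eicosanoid hydroxylases, split within itself. Of its 9 genes 7 were tested, with 3 higher, 3 lower and 1 not called. Cyp4f39 is the mouse counterpart of human CYP4F22, which hydroxylates the very long fatty acids of the barrier acylceramides. Cyp4f39 stood at 77.7, 84.97 and 85.6 CPM in knockout libraries and at 47.3, 26.3 and 44.2 CPM in wild type libraries. The knockout libraries were tightly grouped and all above the wild type (log2 1.07, SE 0.22, adjusted p = 0.00809). Keratinocyte markers summed higher in the same libraries, mostly through Krt14, with a list median of 0.07, and their part was not tested.

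Cyp4f18 encodes a hydroxylase of leukotriene B4 that is known from mouse neutrophils. Its values were 9.26, 5.85 and 10.8 CPM in knockout libraries and 1.05, 1.53 and 3.998 CPM in wild type libraries, without overlap. Cyp4f18 rose by 1.99 (log2, SE 0.51, adjusted p = 0.0181). The call was lost without knockout replicate 3 (1.80) or wild type replicate 2 (1.78), and the value was 2.76 without wild type replicate 3. Neutrophil markers were higher in the same knockout libraries (8 of 9 tested), and their part was not tested.

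Cyp4f16 had 14.2, 12.8 and 14.1 CPM in knockout libraries and 7.08, 7.37 and 7.33 CPM in wild type libraries. The replicates of each genotype agreed closely and the groups lay far apart relative to that spread (log2 0.92, SE 0.13, adjusted p = 0.00236). Cyp4f13 went the other way. It stood at 7.24, 8.30 and 7.52 CPM in knockout libraries, all below the 11.5, 10.4 and 11.5 CPM of wild type libraries (log2 -0.53, SE 0.14, adjusted p = 0.0183). This small decrease lost its call without knockout replicate 1 (-0.48) or 3 (-0.51) or wild type replicate 1 (-0.49) or 3 (-0.50). Cyp4f17 averaged 6.89 ± 2.36 CPM in knockout and 5.04 ± 1.05 CPM in wild type libraries (SD, n = 3 each), overlapped, and did not pass.

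The 2 remaining Cyp4f genes were untested. Cyp4f40 had 13 counts over the knockout libraries and 0 over the wild type libraries, which is at least 5.90-fold higher in knockout skin when the wild type group is set at a floor of 3 counts. Knockout replicate 2 held 9 of these counts, and without it the bound was 2.83-fold. Cyp4f40 met the minimum of 10 counts through the knockout libraries alone. Cyp4f15 had 2 counts in knockout and 8 in wild type. Summed over its 7 members, the Cyp4f subfamily stood at 114, 118 and 128 CPM in knockout libraries and 72.5, 49.6 and 72.9 CPM in wild type libraries. The summed groups did not overlap. Cyp4f39 carried most of the difference between these sums (mean 82.7 CPM in knockout and 39.3 CPM in wild type skin). Reads of Cyp4f16 are uncertain, since its transcript shared 9.80% of its 100-base windows with other P450 transcripts.

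The other genes of family 4 were lower. Cyp4b1, a fatty acid hydroxylase gene also known for activating lung toxins, had 38.4, 30.9 and 28.0 CPM in knockout libraries and 74.3, 49.99 and 53.8 CPM in wild type libraries. No knockout library reached the lowest wild type library (log2 -0.87, SE 0.19, adjusted p = 0.0109). Cyp4v3 is the mouse counterpart of human CYP4V2, the gene of Bietti crystalline dystrophy of the eye. It stood at 13.6, 12.2 and 14.0 CPM in knockout libraries and 26.4, 43.3 and 23.0 CPM in wild type libraries, again without overlap (log2 -1.22, SE 0.24, adjusted p = 0.00767).

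Of the 6 Cyp4f genes that lie within 20 genes of the next, 2 were higher, 1 lower, 1 not called and 2 untested. The start regions of the most precise movers of that group are shown because neighbouring copies moved in opposite directions. Each window holds 250 bases before and 50 after the transcript start, from RefSeq on GRCm38.p6, read 5′ to 3′ on the gene's strand. Capitals mark the xenobiotic response element core GCGTG, the letters bound by the aryl hydrocarbon receptor, on either strand. The windows are chr17:32452473-32452772 (plus strand) for Cyp4f39, chr17:32536307-32536606 (plus) for Cyp4f16 and chr17:32947312-32947611 (minus) for Cyp4f13.
Cyp4f39: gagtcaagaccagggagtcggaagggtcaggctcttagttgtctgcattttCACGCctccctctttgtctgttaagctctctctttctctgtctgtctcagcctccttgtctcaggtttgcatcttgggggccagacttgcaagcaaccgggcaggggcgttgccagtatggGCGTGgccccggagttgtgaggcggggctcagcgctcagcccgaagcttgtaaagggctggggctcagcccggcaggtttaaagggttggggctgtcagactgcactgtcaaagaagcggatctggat
Cyp4f16: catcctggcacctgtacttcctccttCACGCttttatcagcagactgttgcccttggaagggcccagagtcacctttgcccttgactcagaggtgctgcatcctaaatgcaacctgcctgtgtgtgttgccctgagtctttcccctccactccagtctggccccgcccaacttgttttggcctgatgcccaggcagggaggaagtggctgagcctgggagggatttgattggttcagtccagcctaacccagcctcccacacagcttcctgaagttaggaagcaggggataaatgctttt
Cyp4f13: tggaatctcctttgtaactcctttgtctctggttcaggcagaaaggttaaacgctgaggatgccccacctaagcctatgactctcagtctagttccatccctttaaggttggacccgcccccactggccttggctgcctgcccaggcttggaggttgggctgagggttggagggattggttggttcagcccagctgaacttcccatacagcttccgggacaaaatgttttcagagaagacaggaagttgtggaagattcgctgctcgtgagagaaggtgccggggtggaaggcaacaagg
The core occurred 2 times in the Cyp4f39 window, 1 time in that of Cyp4f16 and 0 times in that of Cyp4f13. It was also found in 32.4% of 32851 promoter windows of the same length and in 12 of the 35 P450 genes with a window (34.3%). A match is a description of letters only.

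The Cyp2j subfamily, whose enzymes epoxidise arachidonic acid, was lower as a whole. All 4 of its members passed the filter and all 4 fell. Cyp2j6, the most abundant per kilobase of exon, had 23.4, 40.5 and 32.6 CPM in knockout libraries and 72.6, 58.5 and 58.1 CPM in wild type libraries. Every knockout library was below every wild type library (log2 -0.97, SE 0.21, adjusted p = 0.0102). Cyp2j9 was at 3.40, 7.41 and 6.999 CPM in knockout libraries and 27.4, 24.4 and 16.8 CPM in wild type libraries. The groups were clear of each other, and the decrease was larger (log2 -1.95, SE 0.33, adjusted p = 0.00423).

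Cyp2j8 stood at 1.59, 2.67 and 0.679 CPM in knockout libraries and 5.37, 7.88 and 7.48 CPM in wild type libraries. Here too the groups did not overlap (log2 -2.05, SE 0.44, adjusted p = 0.01). Cyp2j12 had 4.57, 4.96 and 0.940 CPM in knockout libraries and 12.5, 8.33 and 13.6 CPM in wild type libraries. The lowest library of both genes was knockout replicate 3. The decrease of Cyp2j12 (log2 -1.71, SE 0.53, adjusted p = 0.0348) lost its call without knockout replicate 1 (-1.93) or wild type replicate 1 (-1.63), 2 (-1.89) or 3 (-1.56). Summed over the 4 members, Cyp2j reached 32.96, 55.5 and 41.2 CPM in knockout libraries and 118, 99.1 and 96.0 CPM in wild type libraries, a ratio of 0.414 between the means.

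The 4 Cyp2j genes neighbour each other, and their start regions are shown because they moved together. Windows and capitals are as above. They lie on the minus strand at chr4:96553602-96553901 for Cyp2j6, chr4:96591436-96591735 for Cyp2j9, chr4:96507348-96507647 for Cyp2j8 and chr4:96141103-96141402 for Cyp2j12 (RefSeq, GRCm38.p6).
Cyp2j6: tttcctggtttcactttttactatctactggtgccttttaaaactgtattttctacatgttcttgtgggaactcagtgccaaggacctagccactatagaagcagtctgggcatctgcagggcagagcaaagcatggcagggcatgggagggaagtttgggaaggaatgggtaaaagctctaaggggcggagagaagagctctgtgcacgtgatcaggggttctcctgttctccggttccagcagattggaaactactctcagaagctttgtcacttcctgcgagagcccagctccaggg
Cyp2j9: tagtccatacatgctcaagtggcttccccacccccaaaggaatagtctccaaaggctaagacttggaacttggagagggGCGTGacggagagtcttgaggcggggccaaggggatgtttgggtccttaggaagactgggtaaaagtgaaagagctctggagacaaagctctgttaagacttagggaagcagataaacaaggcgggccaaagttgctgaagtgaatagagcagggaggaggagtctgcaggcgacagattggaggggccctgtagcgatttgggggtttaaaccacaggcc
Cyp2j8: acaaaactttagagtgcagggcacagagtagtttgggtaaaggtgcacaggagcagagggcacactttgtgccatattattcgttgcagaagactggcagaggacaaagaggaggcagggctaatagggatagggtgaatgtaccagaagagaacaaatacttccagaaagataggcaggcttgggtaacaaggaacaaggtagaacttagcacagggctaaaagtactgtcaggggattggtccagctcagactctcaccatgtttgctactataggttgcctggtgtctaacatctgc
Cyp2j12: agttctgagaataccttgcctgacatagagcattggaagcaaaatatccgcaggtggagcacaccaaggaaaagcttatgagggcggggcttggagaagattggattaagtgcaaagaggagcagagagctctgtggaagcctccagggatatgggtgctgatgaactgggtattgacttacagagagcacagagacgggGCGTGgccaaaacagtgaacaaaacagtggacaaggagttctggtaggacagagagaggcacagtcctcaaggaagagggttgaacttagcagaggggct
The core occurred 1 time each in the windows of Cyp2j9 and Cyp2j12 and 0 times in those of Cyp2j6 and Cyp2j8. An NF-kB consensus, searched on both strands, was found in the Cyp2j6 window, as in 4.51% of all windows, and in no other of the 35 P450 windows. The transcripts of the 4 genes were 81.7% to 86.9% identical in pairs, and none of their 100-base windows, the length of a read, occurred in another P450 transcript.

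**Figure D2:**
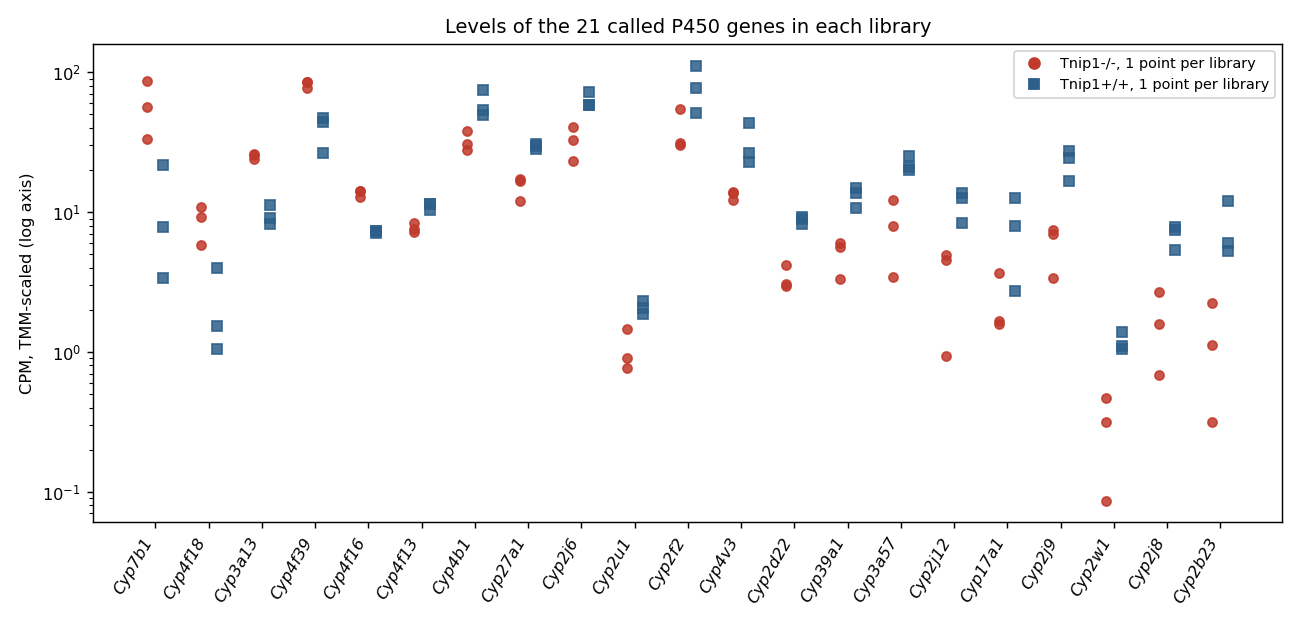
Level of each of the 21 called P450 genes in each library (y axis, CPM on a log axis), with knockout libraries as circles left of wild type libraries as squares. Genes run from the largest increase (Cyp7b1) to the largest decrease (Cyp2b23). The groups overlap for Cyp17a1 and Cyp2f2 and for none of the other called genes.

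The pair of tested Cyp3a genes, members of the drug- and steroid-oxidising subfamily, moved in opposite directions. Cyp3a13 had 26.2, 23.9 and 25.5 CPM in knockout libraries and 8.25, 9.07 and 11.3 CPM in wild type libraries. The groups were far apart relative to the spread within each (log2 1.40, SE 0.15, adjusted p = 0.00108). Cyp3a57 was at 7.97, 12.2 and 3.45 CPM in knockout libraries and 21.03, 19.9 and 25.1 CPM in wild type libraries, with no overlap (log2 -1.48, SE 0.40, adjusted p = 0.022). Its call was lost without knockout replicate 1 (-1.47) or wild type replicate 3 (-1.36). The sum of both was 34.2, 36.1 and 29.0 CPM in knockout libraries and 29.3, 29.0 and 36.4 CPM in wild type libraries, so the summed groups overlapped.

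**Figure D3:**
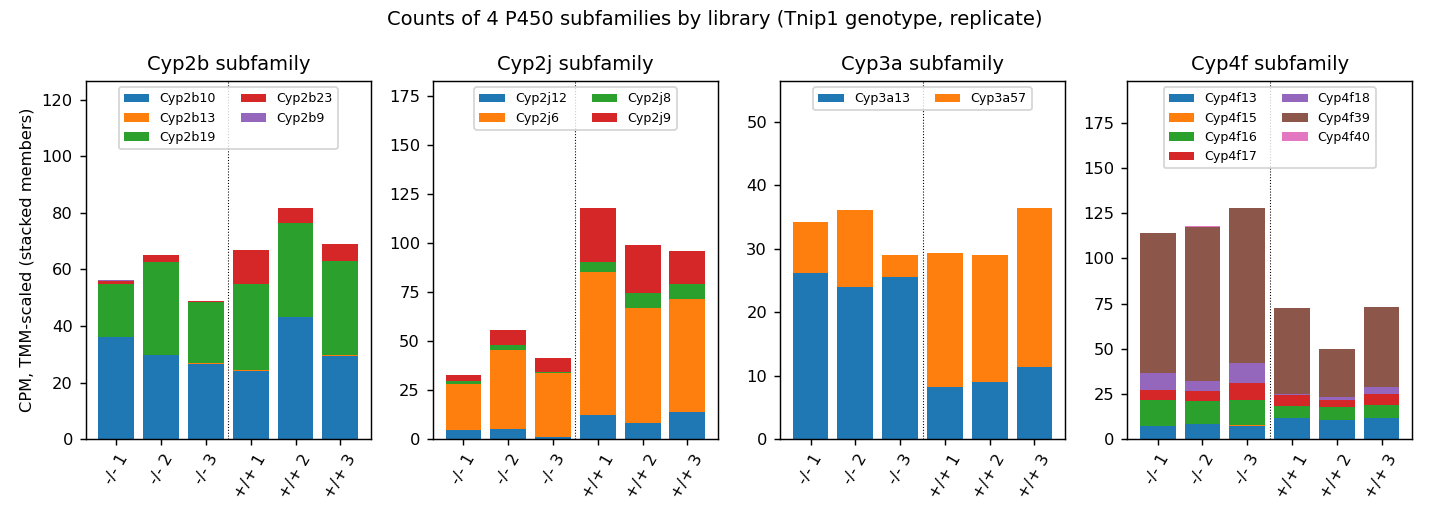
Stacked levels (y axis, CPM) of the members of 4 subfamilies in each library, knockout left of wild type. The Cyp2j stack is 32.96 to 55.5 CPM in knockout and 96.0 to 118 CPM in wild type, the Cyp4f stack is 114 to 128 CPM against 49.6 to 72.9 CPM, and the Cyp3a stacks overlap while their makeup differs.

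A run of 10 family 2 genes, in which Cyp2b and Cyp2a copies neighbour Cyp2s1, Cyp2g1 and Cyp2f2, held 0 higher and 2 lower calls, with 4 not called and 4 untested. Cyp2b23 fell furthest of the called P450 genes. It had 1.12, 2.24 and 0.313 CPM in knockout libraries and 12.1, 5.27 and 6.00 CPM in wild type libraries, without overlap. The decrease (log2 -2.64, SE 0.62, adjusted p = 0.0137) was -3.38 without knockout replicate 2. Cyp2f2, known for activating naphthalene in the lung, stood at 30.2, 31.3 and 55.0 CPM in knockout libraries and 51.0, 77.0 and 112 CPM in wild type libraries. The highest knockout library exceeded the lowest wild type library. Its decrease (log2 -1.04, SE 0.34, adjusted p = 0.0421) lost its call without knockout replicate 1 (-0.88) or 2 (-0.89) or wild type replicate 2 (-1.07) or 3 (-0.71).

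The abundant Cyp2b genes did not pass the test. Cyp2b10, the classical phenobarbital-inducible gene of mouse liver, averaged 30.9 ± 4.83 CPM in knockout and 32.2 ± 9.85 CPM in wild type libraries (SD, n = 3 each), with a log2 value of -0.06 whose sign turned without knockout replicate 3 (0.04), without wild type replicate 2 (0.21) and with the sex covariate (0.017). Cyp2b19 encodes an arachidonic acid epoxygenase of mouse keratinocytes. It stood at 18.7, 32.9 and 21.6 CPM in knockout libraries and 30.3, 33.1 and 33.4 CPM in wild type libraries. The groups overlapped only through knockout replicate 2, and Cyp2b19 passed without that library (-0.66) but not with it (log2 -0.40, SE 0.21, adjusted p = 0.155). Cyp2b9 (14 counts in knockout and 3 in wild type), Cyp2b13 (5 and 23), Cyp2a4 (13 and 47) and Cyp2a5 (28 and 24) were untested. Reads of Cyp2a4 and Cyp2a5 are uncertain, since their transcripts were 98.3% identical and shared 11.2% and 14.4% of their 100-base windows with other P450 transcripts.

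Cyp2g1, a gene best known from olfactory mucosa, had the widest spread of the tested P450 genes by the SE of its fold change (1.38). Its levels were 5.43, 10.0 and 0.679 CPM in knockout libraries and 3.84, 202 and 52.5 CPM in wild type libraries. Wild type replicate 1 lay within the knockout range, so the groups overlapped. Cyp2g1 did not pass (log2 -3.99, SE 1.38, adjusted p = 0.0512), it passed without wild type replicate 1 (-4.53), with library totals alone (-4.09), with upper-quartile factors (-4.08), with no filter (-3.98) and by DESeq2 (-3.99, adjusted p = 0.017), and the value was -2.37 without wild type replicate 2 and -4.76 without knockout replicate 2. The Xist-high libraries included both high wild type values and the lowest knockout value, and with the sex covariate the value was -2.31 (adjusted p = 0.51).

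The ethanol-oxidising gene Cyp2e1 had the highest mean level per kilobase of exon over the 6 libraries. It stood at 94.3, 0.339 and 65.7 CPM in knockout libraries and 62.2, 257 and 201 CPM in wild type libraries. In knockout replicate 2, the lowest, the adipocyte hormone gene Adipoq was at 0.593 CPM, against 91.5 and 116 CPM in the other knockout libraries, while the wild type libraries held 222 to 435 CPM. Cyp2e1 did not pass (log2 -1.70, SE 1.28, adjusted p = 0.306). Its value was -1.09 without knockout replicate 2 -2.39 without knockout replicate 1 and -3.61 by limma voom, and none of these passed. The summed adipocyte markers were 2258, 341 and 2379 CPM in the knockout libraries, and their part in the Cyp2e1 difference was not tested.

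**Figure D4:**
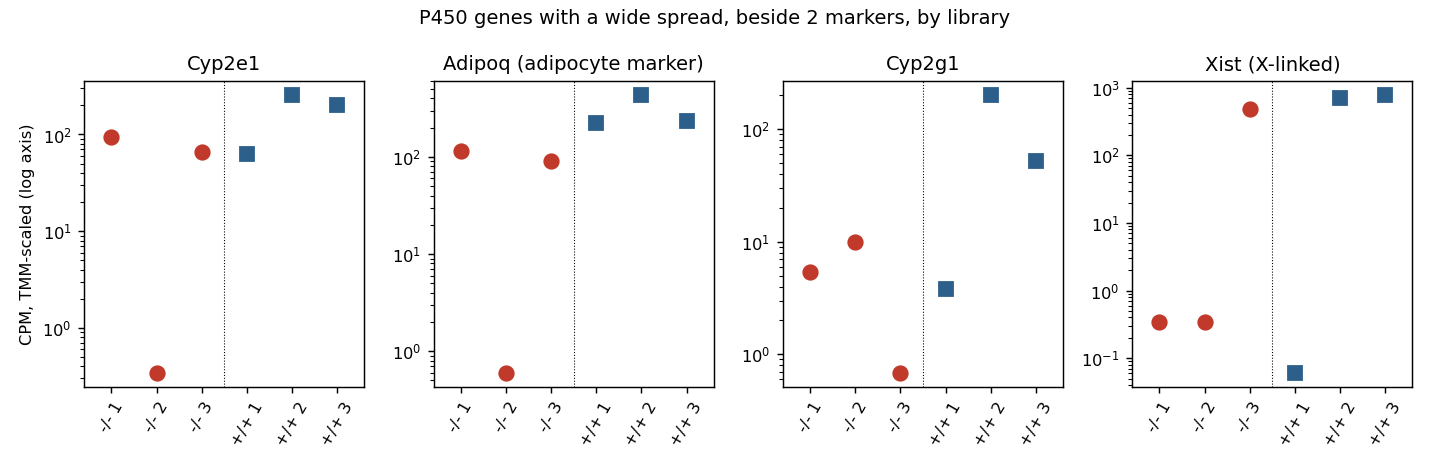
Levels (y axis, CPM on a log axis) of Cyp2e1, the adipocyte marker Adipoq, Cyp2g1 and the X-linked Xist in each library, knockout left of wild type. Cyp2e1 and Adipoq are both under 1 CPM in knockout replicate 2, and Cyp2g1 is at 202 and 52.5 CPM in the 2 wild type libraries with high Xist.

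Of 6 genes of other family 2 subfamilies, 3 were lower, 2 were not called and 1 was untested. Among the 6, Cyp2s1 was also counted above in the run with the Cyp2b genes. Cyp2d22, a counterpart of the human drug enzyme CYP2D6, had 2.97, 4.19 and 3.08 CPM in knockout libraries and 8.28, 9.28 and 8.996 CPM in wild type libraries. The groups did not overlap (log2 -1.37, SE 0.19, adjusted p = 0.00248). Cyp2w1 was at 0.0862, 0.466 and 0.313 CPM in knockout libraries and 1.38, 1.05 and 1.11 CPM in wild type libraries, also without overlap (log2 -2.02, SE 0.48, adjusted p = 0.0146), from 19 counts in knockout and 107 in wild type. Knockout replicate 1 held 2 counts of Cyp2w1, under the floor of 3 counts. The fatty acid hydroxylase gene Cyp2u1 averaged 1.04 ± 0.370 CPM in knockout and 2.08 ± 0.226 CPM in wild type libraries (SD, n = 3 each). Its decrease (log2 -1.004, SE 0.30, adjusted p = 0.0326) lost its call without knockout replicate 1 (-0.91) or 2 (-0.80) and without wild type replicate 1 (-1.07), 2 (-0.92) or 3 (-0.99).

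Cyp2r1, the gene of the main vitamin D side-chain hydroxylase of liver, stood at 2.63, 3.52 and 3.13 CPM in knockout libraries and 2.10, 1.97 and 2.26 CPM in wild type libraries. The groups did not overlap, yet the gene did not pass (log2 0.55, SE 0.21, adjusted p = 0.0722). Cyp2s1, an epithelial P450 gene, averaged 6.96 ± 3.66 CPM in knockout and 5.07 ± 0.828 CPM in wild type libraries (SD, n = 3 each) and did not pass, with a value of 0.45 that turned to -0.039 without knockout replicate 3. The epoxygenase gene Cyp2c44 was untested, with 5 counts in knockout and 60 in wild type, of which 42 were in wild type replicate 2.

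Neither gene of family 1, the classical targets of the aryl hydrocarbon receptor, was called. Cyp1a1 stood at 9.22, 12.3 and 4.70 CPM in knockout libraries and 12.1, 12.0 and 28.1 CPM in wild type libraries. Wild type replicate 3 was the only library above the rest (log2 -0.99, SE 0.45, adjusted p = 0.11). Cyp1b1 had 56.7, 45.3 and 41.4 CPM in knockout libraries and 41.3, 56.6 and 65.4 CPM in wild type libraries. Its groups overlapped across most of their range (log2 -0.19, SE 0.20, adjusted p = 0.465). The promoter windows of both held the GCGTG core.

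The remaining genes act on steroid hormones, vitamin D or retinoic acid, or have no known substrate. Cyp17a1, whose enzyme makes androgen precursors, was at 1.59, 3.64 and 1.67 CPM in knockout libraries and 2.73, 7.92 and 12.6 CPM in wild type libraries. The groups overlapped through wild type replicate 1, and the decrease (log2 -1.74, SE 0.59, adjusted p = 0.0469) was close to the threshold. It was not called by limma voom (-1.53), with the sex covariate (-1.22), or without knockout replicate 1 (-1.52) or 3 (-1.55) or wild type replicate 2 (-1.72) or 3 (-1.18). Cyp11a1, the first enzyme of steroid synthesis, averaged 4.40 ± 2.09 CPM in knockout and 2.78 ± 0.608 CPM in wild type libraries (SD, n = 3 each). It did not pass (0.67), and it passed without knockout replicate 3 (0.99).

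Cyp27b1 makes the active form of vitamin D. Its levels were 0.129, 0.424 and 0.418 CPM in knockout libraries and 0.330, 0.408 and 1.52 CPM in wild type libraries, overlapped, and did not pass (log2 -1.19, and -0.18 without wild type replicate 3). The retinoic acid hydroxylase gene Cyp26c1 was untested, with 7 counts in knockout and 10 in wild type. Cyp20a1, an enzyme with no settled substrate, averaged 21.4 ± 2.01 CPM in knockout and 19.7 ± 2.04 CPM in wild type libraries (SD, n = 3 each). Its value of 0.12 did not pass and turned to -0.033 with library totals alone.

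Per kilobase of exon, the order of the P450 genes differed between the genotypes. In knockout skin the highest levels were those of Cyp4f39 with 29.0 ± 1.548, Cyp7b1 with 27.1 ± 12.4, Cyp2e1 with 24.8 ± 22.3 and Cyp2f2 with 19.2 ± 6.93 CPM per kilobase (SD, n = 3). In wild type skin they were those of Cyp2e1 with 80.2 ± 46.4, Cyp2g1 with 40.1 ± 48.0, Cyp2f2 with 39.5 ± 15.02 and Cyp4b1 with 26.3 ± 5.80 CPM per kilobase (SD, n = 3). Neighbours in these orders differed by less than the larger SD of the pair. In wild type skin Cyp4f39 stood at place 7 and Cyp7b1 at place 17, with 13.8 ± 3.96 and 5.04 ± 4.39 CPM per kilobase.

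The 46 symbols under the count minimum included many genes best known from liver. None of the Cyp2c symbols other than Cyp2c44 had more than 2 counts over the 6 libraries, and Cyp2d22 was the only Cyp2d gene with more than 6. The aromatase gene Cyp19a1, the bile acid gene Cyp7a1 and the aldosterone synthase gene Cyp11b2 had 0 counts. Cyp1a2 had 3 counts, the vitamin D inactivating gene Cyp24a1 had 1, and the retinoic acid hydroxylase gene Cyp26a1 had 1. The Cyp4a symbols had 1 to 4 counts each.

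Because the sexes were uneven, the genotypes were also compared within the Xist-high libraries (1 knockout and 2 wild type) and within the Y-high libraries (2 knockout and 1 wild type). For the 19 called genes whose groups do not overlap, the sign within each sex is fixed by that and adds nothing. The means of the overlapping Cyp2f2 (-0.78 and -0.73) were lower in both. The decreases of Cyp3a57 (-2.71 and -1.06), Cyp2j8 (-3.50 and -1.33), Cyp2j12 (-3.55 and -1.40) and Cyp17a1 (-2.62 and -0.06) had larger sizes in the Xist-high than in the Y-high libraries (log2 of the ratio of means). Among the called genes these had the smallest p in the interaction fit given below. Other called decreases differed in either direction, such as Cyp2b23 (-4.17 and -2.84) and Cyp2j9 (-1.56 and -2.34). Cyp2g1 had opposite signs, -7.55 in the Xist-high and 1.01 in the Y-high libraries. An interaction of genotype and sex, fitted by edgeR over 16691 genes, called 0 genes (407 at an unadjusted p under 0.05), and of the 33 P450 genes 6 had an unadjusted p under 0.05, the smallest being that of Cyp2g1 (0.00249, adjusted p = 1).

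Other genes of the pathway are set beside the shares over all tested genes, 22.3% higher and 22.7% lower, and no list was tested against them. In the list of redox partners and haem synthesis genes, 4 of 21 were higher and 6 lower, with a median log2 value of 0.09. Por, the gene of P450 reductase, was at 78.4 CPM in knockout and 95.1 CPM in wild type skin and did not pass (-0.28). The cytochrome b5 reductase gene Cyb5r3 fell by 1.04, and the haem synthesis gene Cpox (0.87) rose. In the aryl hydrocarbon receptor list 3 of 10 were higher and 3 lower (median 0.06). Tiparp (1.502), a feedback inhibitor of the receptor, rose, whereas Ahrr (-1.002), its repressor, and the aldehyde dehydrogenase gene Aldh3a1 (-1.22) fell.

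Among ligand-activated nuclear receptors 1 of 15 was higher and 5 lower (median -0.61). The oestrogen receptor gene Esr1 (-1.71) fell and Ppard (1.59), which encodes a fatty acid receptor, rose. The xenobiotic receptor gene Nr1i2 had 0 counts in all 6 libraries. Other oxidising and hydrolysing enzymes had 4 of 20 higher and 9 lower (median -0.93), with the aldo-keto reductase gene Akr1b8 at 1.85, the monoamine oxidase gene Maob at -1.47 and the epoxide hydrolase gene Ephx1 at -1.93.

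Among conjugating enzymes, calls fell in both directions, as they did over all genes. Of the glutathione transferase genes 4 of 22 were higher and 7 lower (median -0.38), with Gsta4 (4.34) and Gsto1 (1.46) higher and Gstm1 (-1.98) lower. Sulfotransferase and glucuronosyltransferase genes had 1 of 7 higher and 2 lower (median -0.80), with the cholesterol sulfotransferase gene Sult2b1 at 1.702 and Sult5a1 (-2.14) and Sult1a1 (-1.59) lower. P450 enzymes with other symbols had 0 of 4 called in either direction by edgeR, with 1 at an unadjusted p under 0.05. DESeq2 called 1 of them higher. The gene under 0.05 was Cyp51, the lanosterol demethylase gene of cholesterol synthesis. Cyp51 averaged 372 ± 87.9 CPM in knockout and 266 ± 22.3 CPM in wild type libraries (SD, n = 3 each) and did not pass (0.48, adjusted p = 0.0718).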

How the data were processed

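Total RNA of 6 skin biopsies was sequenced as paired-end stranded libraries after ribosomal depletion, per the labels' protocols. The deposited values were raw read counts per gene symbol for each library, made by the authors with HTSeq among the tools (CASAVA 1.7, STAR, BWA, limma and R 3.2.3, build mm9), per the submitters' processing notes. Roles, settings, annotation and strand option are not given in the sources used here, so reads of overlapping antisense genes may not be separated. The summary lines that name no gene held 26.7% to 28.0% of a knockout file and 27.6% to 30.3% of a wild type file and were left out.

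Counts of all genes were fitted in R 4.3.3 with edgeR 4.0.16 (filterByExpr, TMM, quasi-likelihood F-test, genotype as the only term), with Benjamini-Hochberg adjustment over 16691 genes and a threshold of 0.05. A gene could pass the filter through 1 genotype alone, so counts over tested genes describe and support nothing by themselves. The labels call the 6 libraries separate mice, so p-values measure the spread between these animals. Correlations of same-numbered deviations were 0.01, -0.21 and 0.19. With 3 libraries per genotype and mixed sexes, they cannot show or exclude a pairing by replicate number. Alternatives were other normalizations, limma 3.58.1 voom, DESeq2 1.42.0, other filters, each library left out, a replicate block and a sex covariate. The genotype-by-sex interaction and within-sex values were added after seeing the data.

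The genes and lists were chosen with earlier results of these data known. Values per library were given for up to 10 called genes with the largest change in each direction at 1 CPM or more, and for the 6 with the highest mean CPM. Those of Cyp27a1, Cyp4f13, Cyp2g1, Cyp1a1, Cyp2b19, Cyp2r1 and Cyp27b1 were chosen after their values were seen, and each list gave up to 3 genes with the smallest p, of which some are not reported here. Lengths and transcript likeness came from GENCODE M21 and promoters and gene order from RefSeq GRCm38.p6, a build other than that of the counts, matched by symbol for 43 of 43 genes, 1 through an older symbol.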

Additional observations from a re-analysis of the deposited data

How the results depend on the processing

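The number of P450 genes higher was 5, with 4 to 6 when single libraries were left out and 7 with no filter on low counts. The number lower was 16, with 15 to 18 under other normalizations, tests and filters and with the sex covariate. It was 10 to 15 when single libraries were left out, the lowest being without either knockout replicate 1 or wild type replicate 3. The replicate block gave 5 higher and 13 lower, losing Cyp2j12, Cyp2u1 and Cyp4f13. Same-numbered libraries correlated at -0.21 to 0.19, and not every library correlated best with its own number. With so few libraries and mixed sexes, this cannot exclude a pairing. With library totals alone the sign turned for Cyp20a1 (-0.033, and -0.0333 for its subfamily, of which it is the single gene). That of Cyp2b10 turned with the sex covariate (0.017) and when single libraries were left out (-0.22 to 0.21), and that of Cyp2s1 when single libraries were left out (-0.039 to 0.73). None of these was called, and the cause was not tested. Library totals alone gave a median over all genes of -0.19, against -0.04 with TMM, and 34.1% of calls as higher, against 49.6%. Over all genes 5471 to 8090 were called across the settings. With no filter, Cyp8b1 (2.31), Cyp4f40 and Cyp2c44 (-3.09) of the 10 untested genes were called, and so was Cyp2g1 (-3.98). Cyp8b1 (35 counts in knockout and 9 in wild type), Cyp4f40 (13 and 0) and Cyp2c44 (5 and 60) met the minimum of 10 counts only through 1 genotype. That was the genotype where each was high, so their calls, part of the 7 higher and 18 lower, add no support. For the other 7 untested genes, at these counts, differences were not detectable.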
